A study of Homo sapiens with 4 samples.

Results

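The genes described here are 10 established transcriptional targets of p53 that act in cell cycle arrest, in feedback on p53 or as a secreted stress signal: CDKN1A, MDM2, PPM1D, CCNG1, BTG2, GADD45A, GDF15, TP53INP1, PLK3 and ZMAT3. They were taken by symbol from tables of 58243 genes, each symbol matched 1 row, and the rule that lists them uses no measured value. The 10 genes were, however, chosen with earlier results of these data known. The cells were SH-SY5Y, an established human neuroblastoma line bought from a cell bank and used as a model of neurons. The 2 control libraries (a and b) came from cells given no agent. The 2 SNP libraries (a and b) came from cells kept for 8 h with SNP, sodium nitroprusside, which is a nitric oxide donor. The treatment protocol speaks of cells differentiated with retinoic acid, gives a range of doses without saying which was sequenced, and calls the RNA of the treated cells oxidized. No genetic change is named for either group. The labels do not say whether libraries a and b came from separate cultures, so the p-values below measure the spread between these libraries, which may be technical. Since these are bulk samples, fewer cells of a type and less RNA per cell cannot be told apart.

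p53 is a transcription factor that is made continuously and destroyed just as fast, chiefly because MDM2, a ubiquitin ligase, marks it for the proteasome. DNA damage and other stresses block that destruction, and p53 then binds paired decamers of DNA, each running through purines, a C, A or T bases, a G and pyrimidines, and raises the transcription of its targets. Some of the targets stop the cell cycle, with p21, the product of CDKN1A, as the best known, and others shut p53 off again: MDM2 degrades it and the phosphatase PPM1D (WIP1) removes its activating phosphates.

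The sequence through which p53 acts on its own destroyer lies in the first intron of MDM2, and it is shown because MDM2 was the target with the smallest adjusted p. The stretch is chr12:68808897-68809001 on the plus strand of GRCh38, taken from a RefSeq promoter window (GRCh38.p14) whose start of transcription is base 68809017. It falls between an MDM2 exon that ends at 68808491 and the next, which begins at 68809002 in GENCODE 29. Capitals mark its 2 pairs of adjoining decamers:

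MDM2 intron 1: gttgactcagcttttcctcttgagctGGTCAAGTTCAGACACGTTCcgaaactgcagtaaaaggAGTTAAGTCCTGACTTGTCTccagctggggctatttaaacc

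The upstream pair (chr12:68808923-68808942) began 94 bases before the start of transcription and departed from the p53 consensus at 2 of its 20 bases. The downstream pair (chr12:68808961-68808980) departed at 3 of 20. Among 35116 RefSeq promoter windows of 300 bases (250 before and 50 after each start), 5.20% held at least 1 unspaced pair with at most 3 mismatches. Only 0.202% (71 windows, those of MDM2 among them) held at least 2 such pairs. The limit of 3 mismatches equals that of the downstream pair, so this share describes the sequence and tests nothing. The decamer reads the same on both strands, so 1 strand was searched.

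Windows of 8 of the 10 genes were examined, 13 windows in all. No window of the remaining genes was searched, so nothing is said here about their promoters. GDF15 had 1 unspaced pair within 3 mismatches, 28 bases after its start, spanning the start of its coding sequence (chr19:18386186-18386205, plus strand). CCNG1 had a pair with 2 mismatches whose decamers lay 9 bases apart, in front of the gene (chr5:163437529-163437557, plus strand). They are printed, with the decamers in capitals, as the closest matches of their kind outside MDM2 in the windows examined:

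GDF15: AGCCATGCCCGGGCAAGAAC

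CCNG1: GAAAATGCCCccttctcgcGAGAAAGCCC

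A match as close as that of CCNG1, with a spacer of up to 13 bases, occurred in 7.82% of all windows. No unspaced pair within 3 mismatches was present in the windows of CDKN1A, BTG2, PLK3, PPM1D, ZMAT3 or CCNG1, which says only that these letters are not in those windows. These matches are descriptions of sequence and no binding was measured.

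All 10 targets were higher in the SNP libraries. Each passed the test across all genes (edgeR quasi-likelihood test, Benjamini-Hochberg adjusted p under 0.05), and for each both SNP values lay above both control values. Of 14759 genes tested, 13.6% were called higher, 12.6% were called lower, and 31.7% had both SNP values above both control values. The median log2 fold change of the 10 targets was 1.34, with a range of 0.34 to 2.68, against -0.0042 for all genes tested. On the log2 scale 7 of the 10 rose by 1 or more, a size that 2.71% of all genes tested reached with a call; PLK3, PPM1D and CCNG1 were below it. Levels are given below as normalised counts per 1000000 (CPM), with the SD over 2 libraries.

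**Figure D1:**
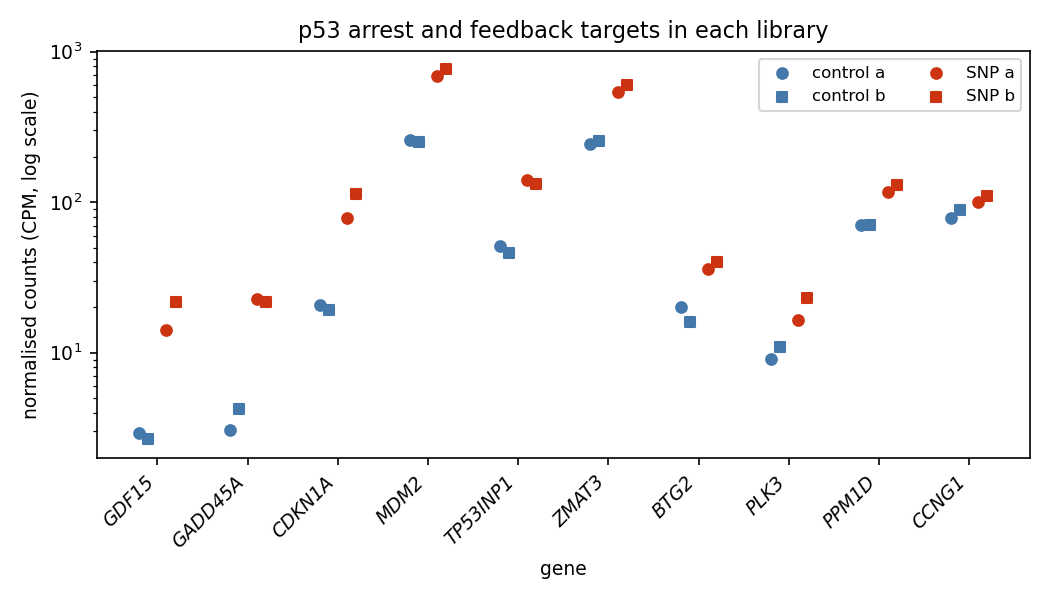
Normalised counts (CPM, log scale) of the 10 targets in each of the 4 libraries, in order of fold change from left to right; circles are libraries a, squares libraries b, blue control and red SNP. Every red point lies above both blue points of the same gene, with the widest gaps for GDF15 and GADD45A and the narrowest for CCNG1.

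The first group holds genes of arrest, together with CCNG1. CDKN1A (chr6:36676460-36687339, plus strand) encodes p21, which binds and inhibits cyclin-dependent kinases. It was at 20.9 and 19.3 CPM in control a and b and at 78.1 and 113 CPM in SNP a and b. The groups were far apart, although the SNP libraries differed from each other more than the control libraries did. The group means were 20.1 ± 1.14 and 95.7 ± 24.9 CPM, and the rise was 4.75-fold (log2 fold change 2.25, SE 0.165, adjusted p = 1.1e-08). Of the exonic bases of CDKN1A, 146 are shared with DINOL, a noncoding gene on the opposite strand that was not analysed here.

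GADD45A (chr1:67685061-67688338, plus strand) encodes a small stress protein that binds the CDK1 and cyclin B1 kinase and PCNA. It was counted 20 and 24 times in control a and b, and 181 and 169 times in SNP a and b. It was therefore a scarce transcript in the control cells, with 3.08 and 4.25 CPM, and the SNP libraries, with 22.7 and 21.9 CPM, lay close together. The log2 fold change was 2.61 (SE 0.247, adjusted p = 2.7e-07), or 6.11-fold, which placed it at position 55 from the top among all genes tested.

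BTG2 (chr1:203305491-203309602, plus strand) encodes an antiproliferative protein that recruits deadenylases to mRNA. It was at 20.1 and 15.9 CPM in the control libraries and at 35.8 and 40.2 CPM in the SNP libraries. The spread within each group was small beside the distance between them. BTG2 thus rose 2.10-fold (log2 fold change 1.07, SE 0.169, adjusted p = 9.0e-05).

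PLK3 (chr1:44800225-44805990, plus strand), a stress-responsive member of the polo-like kinases, was at 9.07 and 10.98 CPM in control a and b. The SNP values were 16.6 and 23.1 CPM, apart from each other but both above the controls. The log2 fold change was 0.99 (SE 0.221, adjusted p = 0.0022), or 1.98-fold. Its exons share 78 bases with TCTEX1D4, which was at 0 in all 4 libraries.

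CCNG1 (chr5:163437569-163446151, plus strand) encodes cyclin G1, a p53 target that recruits a phosphatase to MDM2. It showed the smallest change of the 10. Its control values were 78.8 and 88.9 CPM and its SNP values 100.7 and 110.7 CPM, so that the groups did not overlap but control b and SNP a were close. The log2 fold change was 0.34 (SE 0.114, adjusted p = 0.033), or 1.26-fold, at percentile 78.1 of all genes tested. The call was lost without control a (adjusted p = 0.37), without control b (0.073) and without SNP b (0.094). It was also lost with the DESeq2 Wald test (adjusted p = 0.080) and with offsets on gene length and GC content (0.13).

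The second group holds MDM2 and PPM1D, which act back on p53, together with TP53INP1, ZMAT3 and GDF15. MDM2 (chr12:68808176-68850686, plus strand) was at 259 and 252 CPM in control a and b and at 695 and 765 CPM in SNP a and b. MDM2 and ZMAT3 were the most highly counted of the 10 in every library. The log2 fold change was 1.51 (SE 0.0927, adjusted p = 7.0e-10), or 2.86-fold, the smallest adjusted p of the 10. Counts are per gene, so transcripts that start at the first exon and those that start at the intronic promoter shown above were not told apart. The genes that share exonic bases with MDM2 had at most 5 counts in any library, against 5914 for MDM2 in SNP b.

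PPM1D (chr17:60600183-60666280, plus strand) was at 70.3 and 70.7 CPM in the control libraries, nearly the same value. In the SNP libraries it was at 118 and 130.1 CPM. The rise was 1.76-fold (log2 fold change 0.81, SE 0.112, adjusted p = 2.2e-05). This estimate was below that of MDM2; the difference between the genes was not tested.

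TP53INP1 (chr8:94925972-94949411, minus strand) encodes a stress protein of p53-dependent death and autophagy that supports phosphorylation of p53. Its control values were 51.5 and 45.7 CPM and its SNP values 141 and 132 CPM. The log2 fold change was 1.49 (SE 0.117, adjusted p = 2.0e-08), or 2.80-fold, close to that of MDM2.

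ZMAT3 (chr3:179017223-179072279, minus strand), also called WIG1 or PAG608, encodes a zinc finger protein that binds RNA and regulates splicing and mRNA stability. It was at 245 and 255 CPM in the control libraries and at 542 and 598 CPM in the SNP libraries. Both SNP values exceeded both control values by a wide margin. ZMAT3 rose 2.28-fold (log2 fold change 1.19, SE 0.0935, adjusted p = 2.0e-08).

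GDF15 (chr19:18374731-18389176, plus strand) is the secreted member, a distant TGF-beta relative released by stressed cells that signals through GFRAL in the hindbrain. It was counted 19 and 15 times in control a and b, and 113 and 169 times in SNP a and b. In CPM these were 2.92 and 2.66 against 14.2 and 21.9. It was the scarcest of the 10 in control cells and had the largest log2 fold change among them, 2.68 (SE 0.296, adjusted p = 1.9e-06), or 6.40-fold. The SE was also the largest of the 10, and the SNP libraries stood apart from each other.

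**Figure D2:**
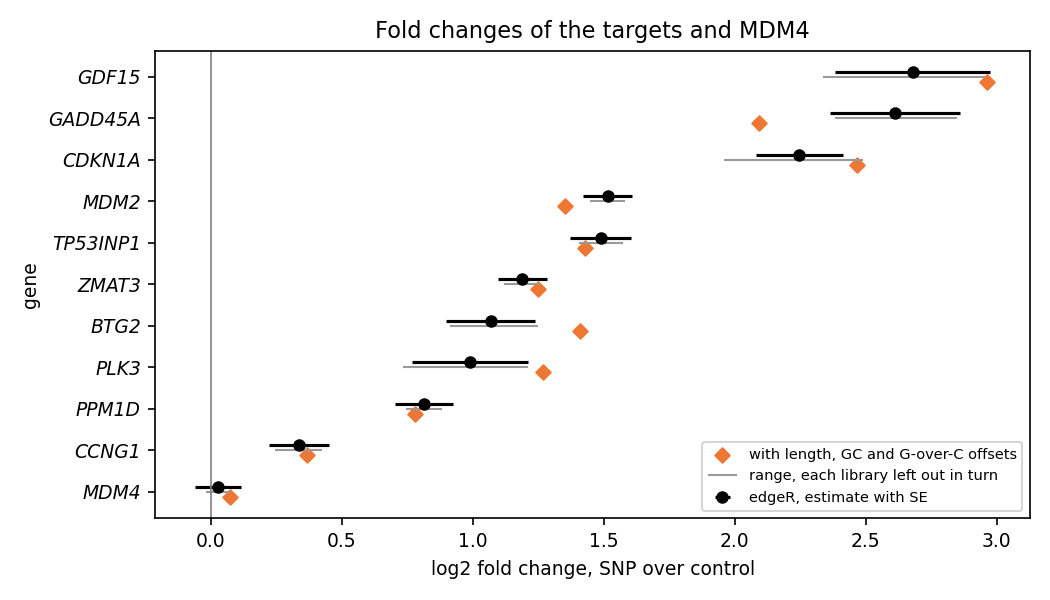
Log2 fold change, SNP over control, of the 10 targets and MDM4; black points with bars are edgeR estimates with their SE, grey lines the range when each library is left out in turn, and orange diamonds the estimates with offsets on guanine-over-cytosine content, length and GC content. The 10 targets lie to the right of 0 under each of these fits, and MDM4 lies close to it.

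SNP b exceeded SNP a for 8 of the 10 targets. The log2 difference of b over a was 0.62 for GDF15, 0.54 for CDKN1A and 0.48 for PLK3, and these differences stood at percentiles 95.2, 93.7 and 92.1 of all genes tested. For MDM2, ZMAT3, PPM1D and CCNG1 it was 0.14 each, and for BTG2 0.17. GADD45A and TP53INP1 went slightly the other way, by -0.06 and -0.10. The share of all genes with SNP b above SNP a was not counted directly. A difference of -0.01 (PMAIP1) stood at percentile 48.3 of all genes tested, and one of 0.01 (CDC20) at percentile 51.9. Equal values thus lay between these percentiles. Genes of like guanine minus cytosine content (within 0.5 points) had a median difference of 0.08 for CDKN1A and GDF15. It was 0.12 for PLK3 and BTG2, -0.13 for GADD45A, and between -0.07 (MDM2) and 0.03 (ZMAT3) for the rest. A wide gap did not go with a large fold change in every case: GADD45A, with a fold change near that of GDF15, had nearly equal SNP values. Leaving out SNP b gave log2 fold changes of 1.96 for CDKN1A, 2.34 for GDF15 and 0.73 for PLK3, all still called.

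Per unit of transcript length, the targets kept a wide span of levels. On the deposited TPM scale, CCNG1 (128 ± 12.7) and ZMAT3 (122 ± 4.99) were highest in control cells and their libraries overlapped. MDM2 (90.8 ± 0.586), PPM1D (65.9 ± 1.13) and TP53INP1 (40.4 ± 2.89) followed without overlap. CDKN1A (31.1 ± 1.35) and BTG2 (30.8 ± 4.68) overlapped, and PLK3 (13.6 ± 2.01), GADD45A (8.36 ± 2.0) and GDF15 (6.30 ± 0.340) came last. Thus CCNG1, ZMAT3 and MDM2 had the highest RNA levels of the 10 in untreated cells, and CDKN1A was in the middle.

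In the SNP libraries the order changed. ZMAT3 (303 ± 30.9 TPM) and MDM2 (282 ± 28.3 TPM) were at the top and overlapped. CCNG1 (175 ± 17.4 TPM), CDKN1A (161 ± 47.0 TPM), PPM1D (126 ± 13 TPM) and TP53INP1 (123 ± 2.11 TPM) followed, with each overlapping the next. CDKN1A had passed PPM1D and TP53INP1 in the order of means. Its range over the SNP libraries (128 to 195 TPM) overlapped that of PPM1D (117 to 135 TPM). It lay above that of TP53INP1 (122 to 125 TPM). BTG2 was at 70.7 ± 8.13, GADD45A at 55.2 ± 0.273, GDF15 at 44.5 ± 14.8 and PLK3 at 29.4 ± 7.80 TPM, the last 2 overlapping. Length-scaled counts with TMM factors gave the same order in both groups.

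MDM4, the relative of MDM2 that inhibits p53 without degrading it, was at 610 and 571 CPM in control cells and at 589 and 615 CPM after SNP. Its groups overlapped (log2 fold change 0.03, SE 0.0877, adjusted p = 0.85).

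Ratios of TPM within a library are free of the scaling between libraries. MDM2 over MDM4 was 0.353 and 0.366 without SNP, and 0.979 and 1.03 with it. The message of the ligase was thus well below that of its relative in control cells and about level with it in SNP cells. Between p21 and its kinase targets the shift was of similar kind: CDKN1A over CDK2 was 0.727 and 0.624 in control a and b and 3.03 and 4.74 in SNP a and b. CDKN1A over CDK4 was 0.337 and 0.260, then 1.45 and 1.97. For PCNA, the replication clamp that p21 also binds, the ratio stayed below 1 throughout, at 0.104 and 0.0922, then 0.464 and 0.681. GADD45A over CDK1 went from 0.105 and 0.153 to 0.787 and 0.985. CDK1, CDK2, CDK4 and PCNA were named after their values were seen. These are ratios of RNA, and protein was not measured.

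**Figure D3:**
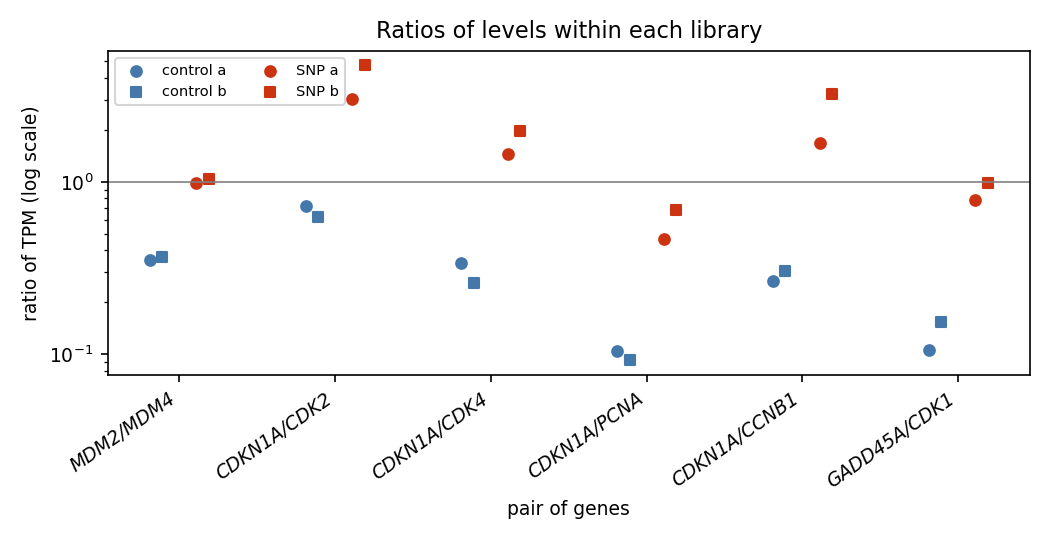
Ratio of the TPM of 2 genes within each library (log scale, grey line at 1), for MDM2 over MDM4 and for CDKN1A and GADD45A over cell cycle genes; circles are libraries a, squares libraries b, blue control and red SNP. Both red points lie above both blue points for all 6 pairs, and the SNP ratios cross 1 for CDKN1A/CDK2, CDKN1A/CDK4 and CDKN1A/CCNB1 while CDKN1A/PCNA and GADD45A/CDK1 stay below it.

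The fold changes in these libraries followed base composition. Across 14724 genes, the log2 fold change had a Spearman correlation of 0.48 with the guanine minus cytosine content of the transcripts; the genes share libraries and are not independent. The median log2 fold change went from -0.43 in the tenth of genes with the lowest such content to 0.39 in the tenth with the highest. The targets did not gather at one end of this scale. BTG2 and PLK3 (both -1.96 percentage points), GDF15 (-1.16) and CDKN1A (-0.94) lay on the cytosine-rich side, where genes of like content (within 0.5 points) had median log2 fold changes between -0.26 and -0.18. ZMAT3 (0.28), CCNG1 (1.06), TP53INP1 (1.21), PPM1D (1.76) and MDM2 (2.56) lay in the middle, where such medians were between -0.06 and 0.13.

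GADD45A stood alone, with 8.07 points more guanine than cytosine, at percentile 99.3 of all genes. The 82 genes of like content had a median log2 fold change of 0.67, and GADD45A was at percentile 96.4 among them. With offsets that remove the trends on guanine-over-cytosine content, GC content and length, its log2 fold change went from 2.61 to 2.09 (adjusted p = 0.00011). The cytosine-rich members went the other way under the same offsets: CDKN1A to 2.47, GDF15 to 2.96, BTG2 to 1.41 and PLK3 to 1.27. MDM2 went to 1.35. All 10 stayed called under these offsets, CCNG1 with 0.37 (adjusted p = 0.028).

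**Figure D4:**
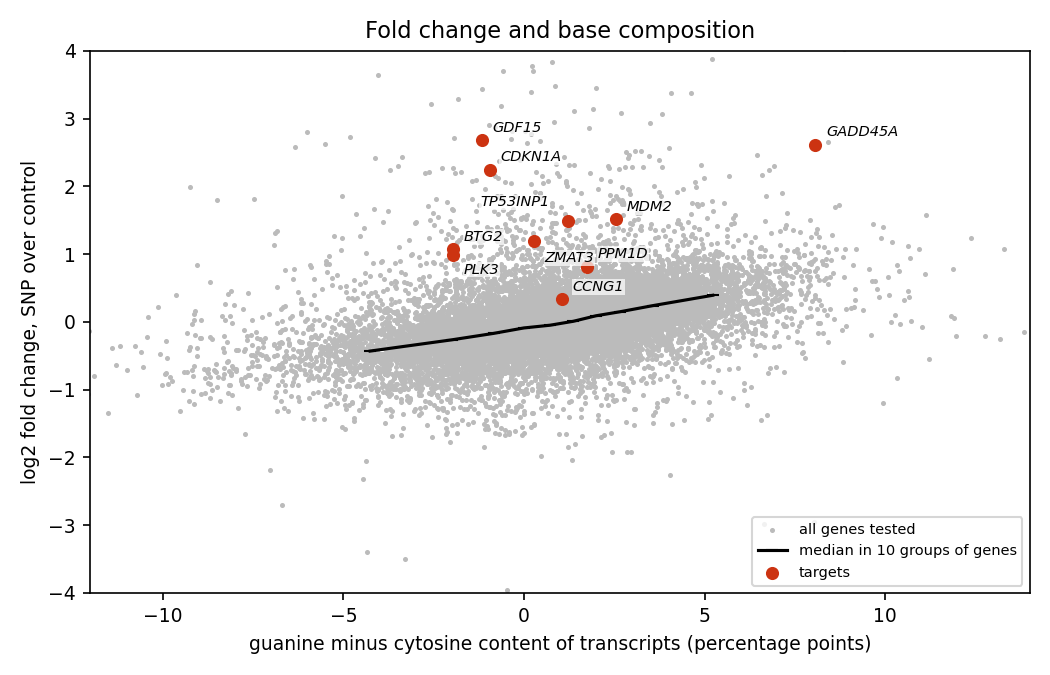
Log2 fold change, SNP over control, against guanine minus cytosine content of the transcripts (percentage points); grey points are genes tested (58 of 14724 lie outside the axes and are not drawn), the black line joins the medians of 10 equal groups of genes, and red points are the 10 targets. The line climbs from -0.43 to 0.39 and ends at 5.23 points. The red points within its span lie above it, and GADD45A lies far to the right of its end.

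The other genes of the pathway were taken as lists, chosen with earlier results of these data known. Of 11 regulators of p53, 10 were tested, 2 were called higher and none lower, beside 13.6% and 12.6% of all genes tested, so the counts are no result about this list. The median was -0.03, and it lay between -0.10 (without control b) and 0.06 (without control a) with a library left out. Those called higher were USP7, a deubiquitinase of MDM2 and p53 (169 ± 3.84 to 259 ± 16.7 CPM, log2 fold change 0.62, adjusted p = 9.1e-05), and SIRT1, a deacetylase of p53 (48.7 ± 3.21 to 72.0 ± 12.5 CPM, 0.57, adjusted p = 0.0037). Without control a the call of SIRT1 was lost (adjusted p = 0.053). The upstream kinases ATM, ATR, CHEK1 and CHEK2, named after their values were seen, were not called, with log2 fold changes of -0.05, -0.20, -0.03 and -0.04.

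The p53 targets of cell death and of repair moved in the same direction as the arrest and feedback genes. Of 12 apoptosis targets, 10 were tested and 6 called higher, beside 13.6% of all genes, with none lower and a median log2 fold change of 0.78. The 3 with the largest rise were the death receptor FAS (1.45 ± 0.554 to 7.39 ± 0.206 CPM, log2 fold change 2.31, adjusted p = 0.00021), the BH3-only protein BBC3 or PUMA (3.88 ± 1.48 to 12.4 ± 2.33 CPM, 1.66, adjusted p = 0.00034) and the death receptor TNFRSF10B (77.2 ± 0.818 to 201 ± 7.09 CPM, 1.38, adjusted p = 1.4e-08). Of 12 repair and metabolic targets, 11 were tested and 10 called higher, beside the same 13.6%, with a median of 0.93. PHLDA3, an inhibitor of AKT, rose from 11.3 ± 2.29 to 54.9 ± 12.9 CPM (2.28, adjusted p = 4.8e-08). FDXR, ferredoxin reductase, rose from 13 ± 3.86 to 43.6 ± 7.31 CPM (1.75, adjusted p = 1.9e-06), and XPC, a sensor of damaged DNA, from 37.3 ± 2.93 to 106.4 ± 1.65 CPM (1.51, adjusted p = 2.9e-08). No test of the difference between these lists and the 10 targets was made.

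**Figure D5:**
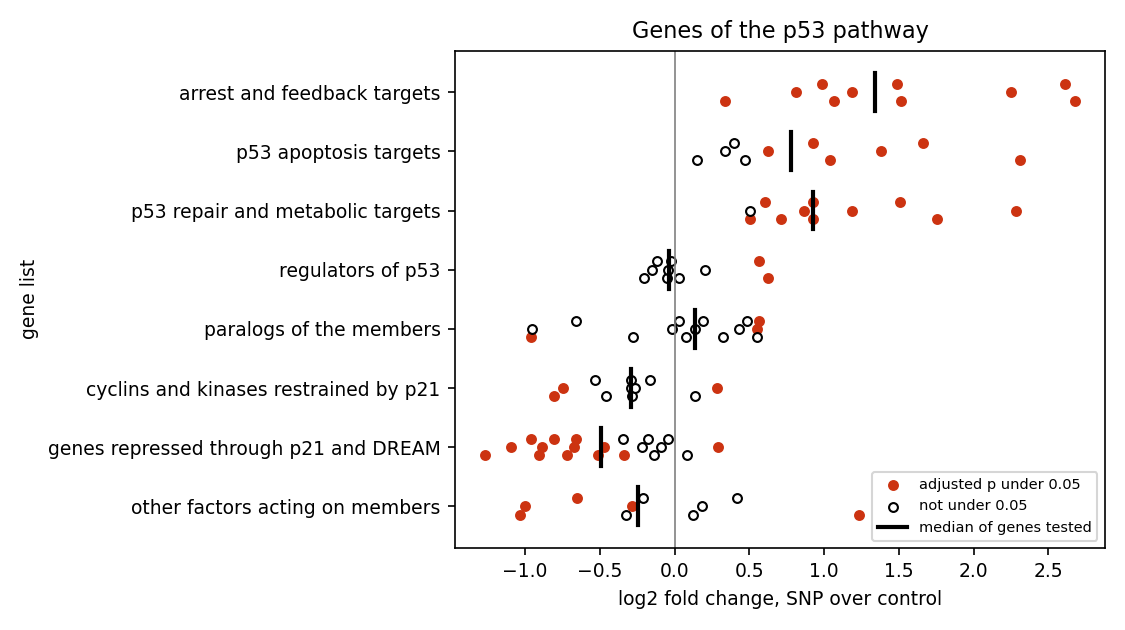
Log2 fold change, SNP over control, of every gene tested in the 10 arrest and feedback targets and in 7 other lists of the p53 pathway; filled red points have an adjusted p under 0.05, open points do not, and black bars are list medians. The 3 lists of p53 targets lie to the right of 0 with medians of 1.34, 0.78 and 0.93, and the cell cycle lists lie mostly to the left with medians of -0.29 and -0.49.

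Of 18 relatives of the 10 genes by sequence (paralogs), 15 were tested, 2 were called higher and 1 lower, beside 13.6% and 12.6% of all genes, so the counts are no result about the paralogs. Their median log2 fold change was 0.14. It was 0.26 without SNP b, 0.08 without control b or SNP a, and -0.04 with the guanine-over-cytosine offsets. CDKN1B, which encodes the p21 relative p27, was higher (21.9 ± 1.66 to 32.5 ± 3.29 CPM, log2 fold change 0.57, adjusted p = 0.014), a call lost without control b (adjusted p = 0.13), without SNP a (0.072) and with the DESeq2 Wald test (0.062). PPM1B, a phosphatase related to PPM1D, was higher (84.7 ± 8.81 to 124 ± 14.7 CPM, 0.55, adjusted p = 0.0016), but its value was -0.10 with the guanine-over-cytosine offsets. PLK1, the polo-like kinase of mitosis, was lower (49.3 ± 2.66 to 25.3 ± 1.45 CPM, -0.96, adjusted p = 5.6e-05), while its relative PLK3 rose.

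The paralogs not called had these values. CDKN1C, which encodes p57, was at -0.95 (adjusted p = 0.053). CCNG2 was at 0.14, BTG1 at -0.28, BTG3 at 0.55, TP53INP2 at -0.01, PLK2 at 0.43 and PLK4 at 0.08. PPM1A was at 0.19, ZMAT1 at 0.48, ZMAT2 at 0.33 and ZMAT4 at -0.66. Some of these passed the threshold when a library was left out: CDKN1C (adjusted p = 0.021) and ZMAT1 (0.029) without control a, BTG1 (0.022) without SNP a, and BTG3 (0.015), PPM1A (0.035) and ZMAT1 (0.028) without SNP b. With the guanine-over-cytosine offsets PPM1A turned to -0.23 (adjusted p = 0.040) and TP53INP2 to 0.53 (0.018), both called. CDKN1C, BTG3 and ZMAT1 were also called with the replicate block (adjusted p = 0.038, 0.041 and 0.037). GADD45B, GADD45G and BTG4 did not pass the filter on low counts, with at most 0.531 CPM in any library, so GADD45A was the only GADD45 gene with a level that could be tested.

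Downstream of p21, unphosphorylated RB family proteins hold E2F and DREAM complexes on the promoters of cell cycle genes. Among 12 genes that p21 restrains, which are cyclins and kinases together with PCNA, 11 were tested. Of these, 1 was called higher and 2 lower, with a median of -0.29. These counts are near the 13.6% and 12.6% of all genes and are no result about the list. CCNB1, the cyclin of mitotic entry, was lower (59.7 ± 9.08 to 34.2 ± 7.03 CPM, log2 fold change -0.81, adjusted p = 0.00053). CCND3, a D-type cyclin, was lower (15.5 ± 1.19 to 9.19 ± 1.27 CPM, -0.75, adjusted p = 0.017). CDK6 was higher (635 ± 23.8 to 773 ± 27.6 CPM, 0.28, adjusted p = 0.019). The calls of CCND3 and CDK6 were lost when single libraries were left out: CCND3 without control b (adjusted p = 0.10) or SNP a (0.078), and CDK6 without control a (0.15) or SNP a (0.087). CCND3 also lost it with the DESeq2 Wald test (0.089) and the guanine-over-cytosine offsets (0.060), and CDK6 with read totals implied by the RPKM values (0.10).

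Of 20 genes repressed through p21 and DREAM, all were tested, 12 were called lower and 1 higher, against 12.6% of all genes called lower. The median was -0.49. CDC20, an activator of the anaphase-promoting complex, had the largest fall, from 30.1 ± 0.266 to 12.5 ± 0.0808 CPM (-1.27, adjusted p = 2.7e-05). CDC25C, the phosphatase that activates CDK1, fell from 17.9 ± 3.23 to 8.40 ± 0.365 CPM (-1.09, adjusted p = 0.0010), and PLK1 was given above. CCNB1 is counted both in this list and in the one before it. CENPF, a kinetochore protein, was the 1 called higher (711 ± 95.2 to 871 ± 70.1 CPM, 0.29, adjusted p = 0.030). It was at -0.26 with the guanine-over-cytosine offsets (adjusted p = 0.017), and its call was lost without control b (0.36) and without SNP a (0.20).

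Transcription factors other than p53 also act on several of the targets: ATF4, ATF3, EGR1 and the FOXO proteins can raise some of them, and MYC represses CDKN1A. Of 12 such factors, activators and repressors together, 10 were tested, 1 was called higher and 4 lower, beside 13.6% and 12.6% of all genes. The median was -0.25, but -0.03 without control b and -0.04 without SNP b. ATF3 was higher (2.43 ± 0.823 to 5.65 ± 1.77 CPM, log2 fold change 1.23, adjusted p = 0.027), at low counts, and its call was lost without control a (adjusted p = 0.20), without SNP a (0.31) and with the DESeq2 Wald test (0.13). MYC was lower (59.1 ± 1.57 to 28.8 ± 0.479 CPM, -1.04, adjusted p = 1.2e-05). EGR1 was lower (18.7 ± 3.85 to 9.35 ± 0.976 CPM, -1.0, adjusted p = 0.0019), but at -0.37 (adjusted p = 0.25) with the guanine-over-cytosine offsets. SP1, a general activator of the CDKN1A promoter, was lower (300.4 ± 28.1 to 190.7 ± 6.96 CPM, -0.66, adjusted p = 6.0e-05). ATF4 and its target DDIT3, named after their values were seen, were not called, with log2 fold changes of 0.18 (adjusted p = 0.34) and -0.21 (adjusted p = 0.73).

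The libraries and the cell line were checked as follows. The summed gene counts lay between 5613144 and 8056550, far below the labelled depth, and 3 counts, the floor used here, were 0.372 to 0.534 CPM. Intervals and floors of this kind cover counting error only. Of 11 neuroblastoma markers, 10 were present, with PHOX2A, HAND2, GATA2, GATA3, ISL1, DBH and STMN2 each between 77.0 and 721 CPM in every library. TH, tyrosine hydroxylase, had 0 counts in all 4. Among the 10 of these markers tested, 3 were called higher and 4 lower, beside 13.6% and 12.6% of all genes tested. DBH had a log2 fold change of -1.38 and PHOX2A of -0.94, while CHGA was at 0.91 and CHGB at 0.97. Leukocyte markers summed to 2.01 to 3.75 CPM per library with PTPRC and CD3E at 0, and epithelial markers to 3.72 to 4.91 CPM with KRT5 and KRT14 at 0. Fibroblast markers summed to 88.4 to 104 CPM, nearly all of it COL3A1 and PDGFRB, with COL1A1, DCN and LUM at most at 1.94 CPM. The leukocyte and fibroblast sums overlapped between the groups. However, of the 4 fibroblast markers tested, 1 was called higher and 2 lower, beside the same shares of all genes. COL3A1 rose (log2 fold change 0.68, adjusted p = 0.00074), while PDGFRB (-0.91, adjusted p = 8.4e-05) and COL1A2 (-1.67, adjusted p = 0.026) fell. The epithelial sum was slightly higher in both SNP libraries and the neuroblastoma sum lower, at 3172 and 3244 CPM in control cells and 2549 and 2705 CPM after SNP. Their part in the results was not tested. The 10 targets summed to 761 and 765 CPM in control cells and to 1764 and 1956 CPM after SNP.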

How the data were processed

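RNA sequencing tables of 4 SH-SY5Y libraries were used, grouped by the sample titles and descriptions. The values tested are the deposited counts, whole numbers of reads for each gene. The TPM and RPKM columns deposited by the authors are scaled per transcript length and depth, per the file headers. The genome build is GRCh38 per the submitters' processing notes; aligner and counter are not given in the sources used here, nor is the use of strand. Of 58243 identifiers, 57980 were found in GENCODE 29, from which positions, exon overlaps and base composition were taken.

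Counts were fitted with edgeR 4.0.16 in R 4.3.3: filterByExpr (minimum count 10, minimum total 15), TMM, quasi-likelihood test over all 4 libraries with no covariate, Benjamini-Hochberg adjustment over all genes tested, threshold 0.05. TMM factors lay between 0.989 and 1.01. Levels in CPM are counts over the TMM-scaled library totals; each SE is the log2 fold change divided by the root of F. Promoter windows are RefSeq's (GRCh38.p14), searched for 2 p53 decamers with a spacer of 0 to 13 bases. The script was tested on simulated data.

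Alternatives were other filters, scalings (DESeq2 1.42.0 size factors, total counts, read totals implied by the RPKM column), tests (DESeq2, limma 3.58.1 voom), thresholds, lowess offsets (span 0.5, 3 iterations) on length and GC, with and without guanine-over-cytosine content, genes without exon overlap, the replicate letter as a block, and each library left out in turn. The members and lists were chosen with earlier results of these data known. Named were the 10 targets, MDM4, all tested paralogs, up to 3 called genes per direction in each other list and the cell line's markers; markers of other cell types and any other gene were named after their values were seen. Some genes of these lists are not reported here and were left out of them.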

Additional observations from a re-analysis of the deposited data

How the results depend on the processing

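Of the 10 targets, 9 kept their call and direction under every one of the 18 alternatives that tested them, apart from the threshold of an absolute log2 fold change of 1, which 7 passed; CDKN1A, MDM2 and PLK3 were not among the genes without exon overlap. CCNG1 kept its direction throughout and lost its call under the settings given with its values, under offsets with the block (adjusted p = 0.061) and under a threshold of 0.01. The median of the targets lay between 1.28 and 1.39 when each library was left out, with 9 to 10 called. Deviations from the group means of libraries with the same letter had a correlation of 0.05, and no label ties a letter to a shared culture. With the replicate letter as a block, 10 targets and 4487 genes in all were called, and the lists of paralogs and of cyclins and kinases had 6 and 5 called genes in place of 3 each.

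The count of all genes called, 3861, was 2415 with the DESeq2 Wald test, 2224 at a threshold of 0.01, 647 with a log2 fold change of at least 1, 1988 of 7276 genes without exon overlap, and between 2447 and 4152 with a library left out (2482 without control a, 2447 without control b). Read totals implied by the RPKM column moved the median of all genes to 0.06 and the share of higher calls from 51.9% to 63.1%; 5 paralogs were then called. Length and GC offsets gave 4 regulators, 5 paralogs and 7 cyclins and kinases, with or without the block, and the guanine-over-cytosine offsets gave 5 regulators, 6 cyclins and kinases and 3 other factors. A filter at a mean of 50 counts gave 5 cyclins and kinases. Among genes without exon overlap, 2 of the 4 apoptosis targets tested and 5 of the 6 repair targets tested were called. At 0.01, 1 of the cyclins and kinases and 3 other factors were called; with a log2 fold change of at least 1, 0 regulators, 0 paralogs, 0 cyclins and kinases, 4 repair targets, 2 DREAM genes and 2 other factors. With single libraries left out, called regulators ranged from 1 (without control a) to 2, called paralogs ranged from 2 to 6 (5 without control a, 2 without control b, 6 without SNP b) and other factors acting on the targets from 3 to 5 (3 without control a or SNP a). Under the guanine-over-cytosine offsets 4 named genes that were called in the main fit or under these offsets changed sign. They were TP53INP2 (to 0.53), PPM1A (to -0.23), PPM1B (to -0.10) and CENPF (to -0.26). Changes of sign in named genes called in neither fit were not counted. Causes beyond the smaller numbers of genes or libraries were not tested. The low control counts of GADD45A, GDF15, FAS and ATF3 limit the precision of their fold changes.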
